A study of Mus musculus and Homo sapiens with 81 samples.

Results

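Gene expression was compared between Ptpn2-null and control A549 cells that had received only vehicle, in 4 of the 81 libraries of the series. A549 is an established human cell line derived from a lung adenocarcinoma. The libraries were chosen by their labels alone, as 2 Ptpn2-null and 2 control libraries of vehicle-treated A549 cells, and no measured value entered that choice. The Ptpn2-null cells had been infected with a lentivirus carrying a guide RNA whose label reads Ptpn2sg3, and their genotype is given as Ptpn2ko. The control cells had been infected with a lentivirus carrying the non-targeting guide Bro4. Both were grown in DMEM with 10% serum and then kept for 48 h with the vehicle, PBS with 0.1% BSA; the treatment label of these libraries reads NS, and it was taken to mean this vehicle. The series as a whole examined how cancer cells with and without PTPN2 respond to cytokines. Within it, the vehicle comparison asks what differs between the genotypes before any cytokine is added. The other 4 A549 libraries carried the same guides and received 100 ng/mL IFNg, and they were used here for comparison, as were the vehicle libraries of HT29 colon cancer cells and MelJuSo melanoma cells. Each genotype rested on a single guide, so an effect of losing PTPN2 and any other difference between the cells carrying each guide cannot be told apart. Separate cultures are not stated for the replicates in the labels, so the p-values speak for the variation among these libraries alone, and part of it may be technical.

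PTPN2 is a protein tyrosine phosphatase. It removes phosphate from JAK1, JAK3 and several STAT transcription factors, and from some growth factor receptors, and so limits signalling downstream of interferons, other cytokines and growth factors. In a cell given IFNg, the receptor pair IFNGR1 and IFNGR2 activates JAK1 and JAK2, STAT proteins are phosphorylated, and genes for antigen presentation, antiviral defence and the transcription factor IRF1 are induced. SOCS1 and SOCS3 are induced in turn and inhibit the JAK kinases. Without a ligand, this pathway is usually little active in epithelial cell lines.

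The 4 vehicle libraries held 6096437 to 7221117 counts, and 13172 of the 23227 genes of the A549 table were tested. Levels below are CPM, counts scaled to a common library size with TMM factors, and differences are log2 fold changes (log2FC) of Ptpn2-null over control with their standard errors. A gene is called where edgeR's quasi-likelihood test gave a Benjamini-Hochberg adjusted p under 0.05 over all 13172 genes. The 9 markers listed for A549 epithelium include the keratins KRT7, KRT8 and KRT18. They summed to 21026 and 20701 CPM in Ptpn2-null cells and to 19749 and 19893 CPM in control cells. The most counted was ALDH1A1, at 69343 to 84722 counts per vehicle library. EPCAM was the least counted, at 34 to 56. Of the markers of alveolar and airway lineages, NKX2-1 had 1 to 2 counts per vehicle library and the surfactant genes SFTPA1, SFTPA2, SFTPB, SFTPC and SFTPD had between 0 and 3. ABCA3, a lipid transporter gene of alveolar type II cells, had 589 and 477 counts in Ptpn2-null cells and 477 and 535 in control cells, and AGER, of type I cells, had 11 to 15 counts per library. The other listed lineage markers, LAMP3, SCGB1A1 and FOXJ1, had between 0 and 7 counts. The keratins and ABCA3 were thus present, EPCAM was low, and the surfactant genes were at or near 0. The 4 vehicle libraries differed in a trend with transcript length, strongest in control replicate 1. The deviation of control replicate 1 from the mean of the 4 rose with transcript length (Spearman rho 0.27 across 9460 genes). The rho was 0.058 in control replicate 2 and -0.21 and -0.14 in the Ptpn2-null libraries, so the trend also differed between the genotypes. Genes are not independent replicates, and these values describe the libraries. The numbers of all genes called are therefore given below also without control replicate 1 and with each library's length trend removed. Both settings were chosen after the data were seen. For the gene lists, such counts are given only in part.

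PTPN2 itself was lower in the cells labelled Ptpn2-null but was still transcribed. It stood at 14.1 and 14.8 CPM in Ptpn2-null cells and at 26.2 and 31.1 CPM in control cells, a log2FC of -0.99 ± 0.13 (95% interval -1.25 to -0.73, adjusted p = 5.4e-11). Both Ptpn2-null libraries lay below both control libraries. Under IFNg, PTPN2 stood at 18.4 and 20.7 CPM in Ptpn2-null cells and at 38.4 and 31.3 CPM in control cells, a log2FC of -0.84 ± 0.11. The genotype difference of PTPN2 was thus of similar size in both treatments, with no called interaction (adjusted p = 0.68). Only transcripts were measured, and neither the edit nor the protein was examined.

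**Figure D1:**
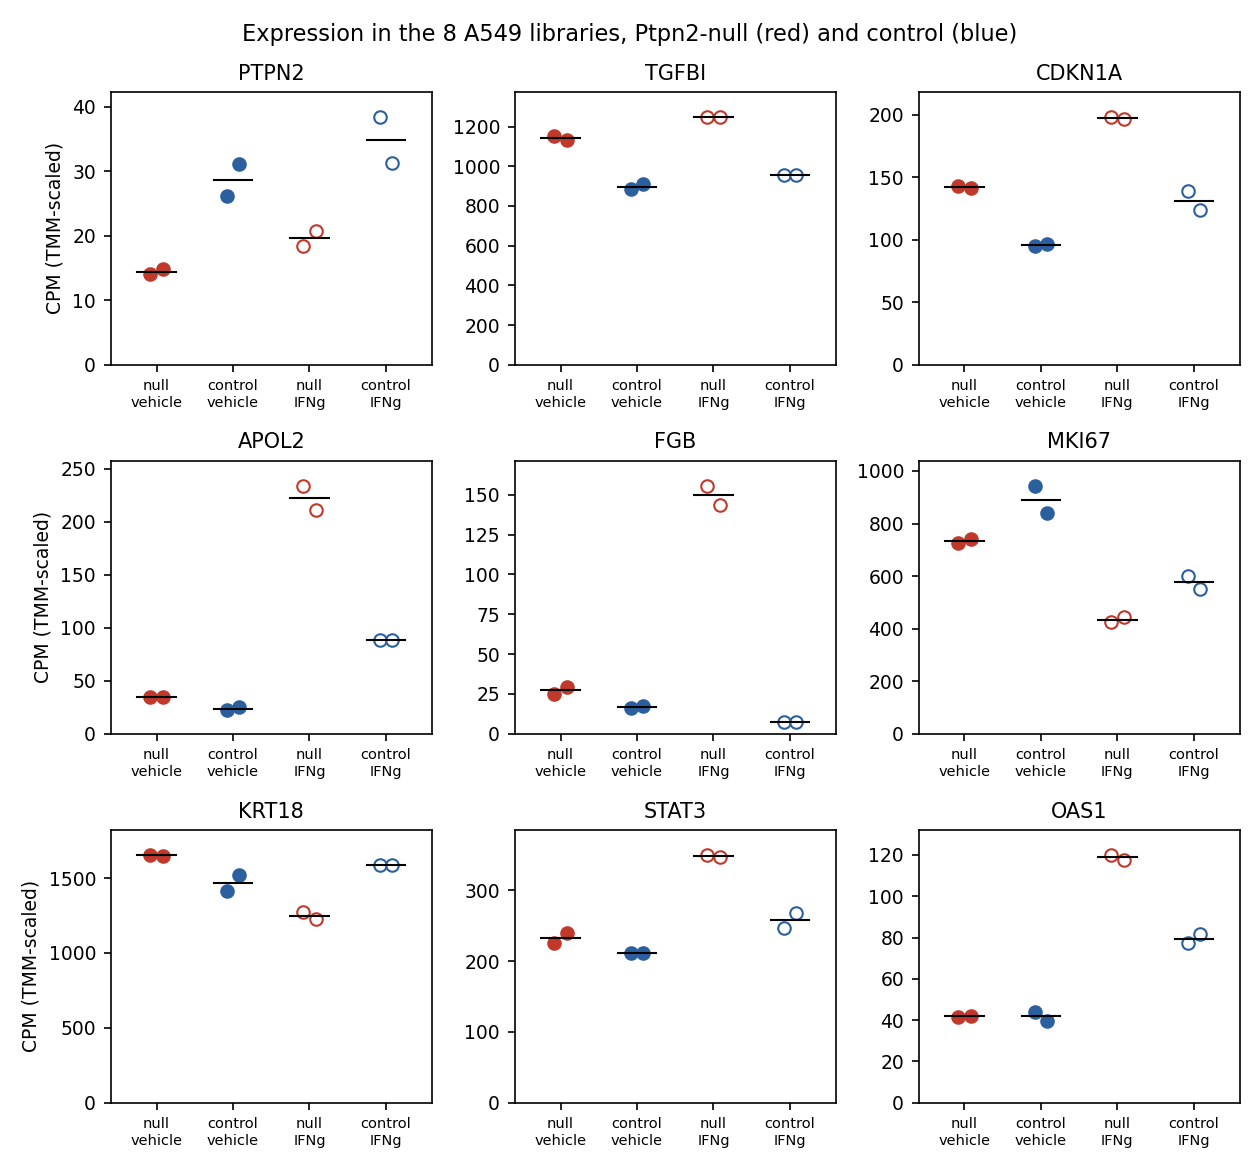
Expression of 9 genes in the 8 A549 libraries, in CPM on axes that start at 0; points are libraries (2 per group, vehicle filled, IFNg open), black bars are group means. PTPN2 was lower in Ptpn2-null cells in both treatments, TGFBI and CDKN1A were higher in both, and OAS1 had a log2FC of 0.0029 under vehicle and 0.58 under IFNg.

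Few genes were called between the genotypes, and most of the called differences were small. An unadjusted p under 0.05 in edgeR's test was found for 1787 of the 13172 tested genes. Of the 13172 tested genes 388 (2.95%) were called, 206 higher (1.56%) and 182 lower (1.38%) in Ptpn2-null cells. The median called gene was 0.24 log2 units higher (17.8%) or 0.21 log2 units lower (13.5% less). Of the called genes, 176 of 206 and 170 of 182 differed by less than 0.5 log2 units, and 8 were higher (0.0607% of tested genes) and 3 lower (0.0228%) by at least 2-fold. Without Ptpn2-null replicate 1 the counts were 106 higher and 70 lower, and without Ptpn2-null replicate 2 they were 109 and 77. Without control replicate 1 they were 88 and 46, and without control replicate 2 they were 152 and 192, so which direction held more calls depended on the control library. With the length trends removed 203 were higher and 88 lower, so the share of higher genes among the calls was 69.8% in place of 53.1%. DESeq2 called 60 higher and 31 lower, all of them among the 388. Whichever of the 8 A549 libraries was left out, 71 genes kept their call, 55 of the higher and 16 of the lower ones. In all 388 called genes the 2 groups did not overlap, as was the case in 42.9% of all tested genes.

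**Figure D2:**
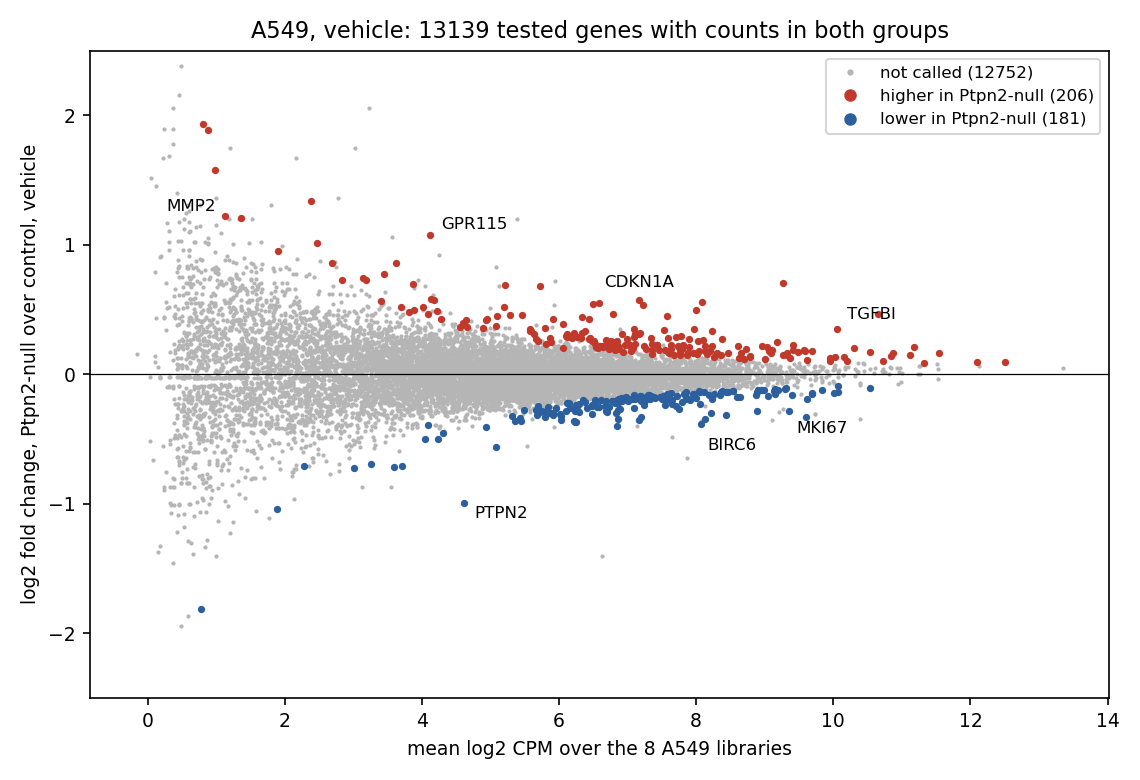
Log2 fold change under vehicle (Ptpn2-null over control) against mean log2 CPM over the 8 A549 libraries, for the 13139 tested genes with counts in both vehicle groups. The 206 genes called higher are red and the 181 called lower blue, and the larger fold changes lie towards the left, at low expression.

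Among the genes that rose, those with the largest log2FC were mostly expressed at a low level. GPR115, an orphan adhesion G protein-coupled receptor gene, had 8.42 and 8.35 CPM in Ptpn2-null cells and 4.03 and 3.91 CPM in control cells (log2FC 1.08 ± 0.24, adjusted p = 0.00078). UGT1A7, a glucuronosyltransferase gene that shares its last exons with the other UGT1A genes, had 3.26 and 5.30 CPM in Ptpn2-null cells, against 1.40 and 1.88 CPM in control cells (1.34 ± 0.36, adjusted p = 0.013). The integrin subunit gene ITGA11 (1.22 ± 0.37) and the gelatinase gene MMP2 (1.21 ± 0.38) had 3.67 to 4.17 CPM in Ptpn2-null cells and 1.24 to 2.03 CPM in control cells. PLEKHG1 (0.95), the potassium channel gene KCNJ16 (0.86), GLIPR1 (0.86), the secreted glycoprotein gene STC1 (0.77), ABLIM3 (0.75), the lipid transporter gene ABCA12 (0.73), RSPH3 (0.73) and the ubiquitin ligase gene MARCH4 (0.70) followed, all under 20 CPM in each vehicle library. NEFL was expressed at a higher level. The neurofilament gene NEFL had 39.4 and 37.4 CPM in Ptpn2-null cells and 26.2 and 21.7 CPM in control cells (0.69 ± 0.11, adjusted p = 1.5e-07). Of the genes named in this group, GPR115 and NEFL kept their call whichever library was left out.

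Among the genes that fell, PTPN2 was the gene with the largest difference among those that kept their call whichever library was left out. Tenascin C (TNC), a matrix glycoprotein, had 0 and 0 counts in Ptpn2-null cells and 4 and 5 counts in control cells. With the Ptpn2-null group put at a floor of 3 counts, summed over its libraries, TNC was at least 3.05-fold lower (adjusted p = 0.027), and it rests on 9 counts. The non-coding gene LOC100216546 fell by 1.04 ± 0.32 on the log2 scale, with 2.85 and 1.93 CPM in Ptpn2-null cells, against 5.74 and 4.34 CPM in control cells. FCGBP (-0.72), SGK494 (-0.72), TTC32 (-0.71), the BMP antagonist gene GREM1 (-0.71) and PLCXD3 (-0.69) had under 25 CPM in every vehicle library. ZC3H6 (-0.50), ZFHX4 (-0.50) and the pseudogene ZNF37BP (-0.46) were also called. So were the RNA polymerase III subunit gene POLR3G (-0.41) and the keratin gene KRT4 (-0.40). Of the genes named in this group, only PTPN2 kept its call whichever library was left out. GREM1 (adjusted p = 0.060), ZC3H6 (adjusted p = 0.069) and ZFHX4 (adjusted p = 0.19) lost theirs with the length trends removed. In SGK494, at 8.97 and 8.99 CPM in Ptpn2-null cells and 18.6 and 11.1 CPM in control cells, control replicate 1 was the highest library by a wide margin.

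Few transcripts of the pathway that PTPN2 is best known to restrain were called between the genotypes under vehicle. Phosphorylation, on which PTPN2 acts, was not measured, so these values do not give the activity of the pathway. Of 34 tested genes of JAK-STAT signalling 1 was called higher and none lower, against 1.56% higher among all tested genes. The median log2FC was 0.00072, against 0.00087 over all tested genes. The one called was SOCS3, the feedback inhibitor, with 38.5 and 38.7 CPM in Ptpn2-null cells and 29.0 and 32.1 CPM in control cells (0.33 ± 0.10, adjusted p = 0.030). Its call was lost with the length trends removed (0.32 ± 0.10, adjusted p = 0.056). STAT3 was not called (0.13 ± 0.05, adjusted p = 0.072), and STAT2 had a log2FC of 0.12 ± 0.09. With the length trends removed STAT3 was called higher (0.17 ± 0.04, adjusted p = 0.014). Over the other alternatives, none of which called it, its adjusted p ranged from 0.053 to 0.55. The kinases JAK1 (0.05 ± 0.04) and JAK2 (-0.04 ± 0.13), the receptor subunits IFNGR1 (0.09), IFNGR2 (-0.06), IFNAR1 (-0.04) and IFNAR2 (-0.10), and IRF9 (0.22 ± 0.15), the DNA-binding part of the type I interferon complex, were not called. SOCS1 was near the detection limit, at 0.68 and 0.80 CPM in Ptpn2-null cells and 0.78 and 0.72 CPM in control cells. In the fit with the length trends removed, 2 members of the list were called higher, STAT3 among them, and none lower.

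The interferon target genes differed in few cases as well. Of 44 tested antiviral interferon-stimulated genes 1 was called, LGALS3BP, a secreted glycoprotein gene, with 227 and 231 CPM in Ptpn2-null cells and 205 and 198 CPM in control cells (0.18 ± 0.04, adjusted p = 0.0010). OAS1, which senses double-stranded RNA, had 41.6 and 42.1 CPM in Ptpn2-null cells and 43.8 and 39.8 CPM in control cells (0.0029 ± 0.091, 95% interval -0.18 to 0.18). IFIT1 (0.05 ± 0.18) and ISG15 (-0.03 ± 0.32) were low and not called, and MX1 (-0.31 ± 0.65) stayed under 1 CPM. Of 31 tested IFNg-inducible genes 2 were called, both higher and both apolipoprotein L genes. Among all tested genes 1.56% were called higher. APOL2 had 34.4 and 34.7 CPM in Ptpn2-null cells and 22.04 and 25.04 CPM in control cells (0.55 ± 0.11, adjusted p = 5.3e-05), and APOL1 had 17.4 and 19.4 CPM in Ptpn2-null cells and 11.8 and 13.0 CPM in control cells (0.56 ± 0.13, adjusted p = 0.0069). The 2 genes are close relatives, and reads shared between them could not be assigned with certainty. IRF1, an interferon-induced transcription factor, had 11.4 and 14.5 CPM in Ptpn2-null cells and 11.02 and 14.2 CPM in control cells (0.02 ± 0.15). GBP1 (0.19 ± 0.77) and the ligand gene CD274, which encodes PD-L1 (0.73 ± 0.57, adjusted p = 0.63), were at the edge of detection. CXCL10 had 2 and 3 counts in Ptpn2-null cells and 0 and 0 in control cells, and CXCL11 had 0 and 0 counts in Ptpn2-null cells and 0 and 2 in control cells. At this depth a difference in these chemokines was not detectable. With members at 0 counts set to their bound, the median log2FC was 0.018 for the antiviral list and 0 for the IFNg-inducible list. With the length trends removed 1 antiviral and 2 IFNg-inducible genes were called higher and none lower. APOL2 kept its call whichever library was left out, and LGALS3BP and APOL1 did not.

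Of 21 tested genes of MHC class I presentation 3 were called higher and none lower, against 1.56% higher among all tested genes, with a median of 0.083. B2M, the invariant light chain, had 273 and 263 CPM in Ptpn2-null cells and 249 and 239 CPM in control cells (0.14 ± 0.04, adjusted p = 0.0070). HLA-C (0.29 ± 0.09, adjusted p = 0.044) and the proteasome activator gene PSME1 (0.22 ± 0.07, adjusted p = 0.045) passed narrowly. With the length trends removed none of the 3 was called: HLA-C stood at 0.29 ± 0.09 (adjusted p = 0.057), PSME1 at 0.19 ± 0.07 (adjusted p = 0.13) and B2M at 0.097 ± 0.038 (adjusted p = 0.19). Between 0 and 3 members were called when a single library was left out. HLA-B was -0.0036 ± 0.14, the peptide transporter gene TAP1 was 0.00045 ± 0.092, and the immunoproteasome genes PSMB8 and PSMB9 were 0.35 ± 0.14 (adjusted p = 0.18) and -0.0013 ± 0.19. Heavy chain genes are near-identical over much of their length, so their separate counts are uncertain.

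A list of interferon targets that uses no A549 library was also examined. In control cells, 117 genes were called and at least 2-fold higher under IFNg in both HT29 and MelJuSo, of which 106 were tested in A549. In the A549 vehicle comparison 8 of these were called higher and none lower (7.55% of the 106, against 1.56% of all tested genes), with a median log2FC of 0.04, or 0.00070 with genes at 0 counts set to their bound. The 8 were APOL1, NNMT, C1R, C1S, HLA-C, C2orf18, PSME1 and B2M. With the length trends removed HLA-C (adjusted p = 0.057), PSME1 (adjusted p = 0.13) and B2M (adjusted p = 0.19) lost their calls. Of the 8, only NNMT, C1R and C1S kept their call whichever library was left out. NNMT, nicotinamide N-methyltransferase, had 76.4 and 77.4 CPM in Ptpn2-null cells and 54.2 and 52.0 CPM in control cells (0.54 ± 0.07, adjusted p = 1.4e-10). C2orf18 was 0.23 ± 0.05 higher (adjusted p = 0.00065).

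Genes of matrix, adhesion and mesenchymal character held the most calls of the 20 lists. Of 35 tested members 10 were called higher and none lower, against 1.56% higher among all tested genes, with a median log2FC of 0.15, and 27 of the 35 lay above 0. Beside MMP2, the urokinase gene PLAU had 52.9 and 51.1 CPM in Ptpn2-null cells and 38.5 and 38.1 CPM in control cells (0.44 ± 0.09, adjusted p = 9.1e-05). TGFBI, a matrix protein gene named for its induction by TGF-beta, had 1153 and 1131 CPM in Ptpn2-null cells and 886 and 909 CPM in control cells (0.35 ± 0.03, adjusted p = 1.6e-28). In both genes each Ptpn2-null library lay above both control libraries. The collagen gene COL5A1 had 48.5 and 48.2 CPM in Ptpn2-null cells and 35.4 and 35.5 CPM in control cells (0.45 ± 0.10, adjusted p = 0.00040), and the basement membrane collagen gene COL4A1 was 0.23 ± 0.06 higher. The smooth muscle actin gene ACTA2 (0.58 ± 0.16) and the proteoglycan gene SPOCK1 (0.56 ± 0.16) were higher at 10.9 to 18.3 CPM. Of the fibroblast markers, COL1A2, DCN and FAP had no count in any of the 4 vehicle libraries, and COL3A1 had 1. The 8 fibroblast markers together summed to 9.65 and 9.31 CPM in Ptpn2-null cells and 5.90 and 7.38 CPM in control cells, and COL1A1 was the most counted of them, at 51 and 45 counts in Ptpn2-null cells and 30 and 38 in control cells. Of the members named, PLAU, TGFBI and COL5A1 kept their call whichever library was left out, 9 of the list's members were called with the length trends removed, and 4 to 10 without 1 library.

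**Figure D3:**
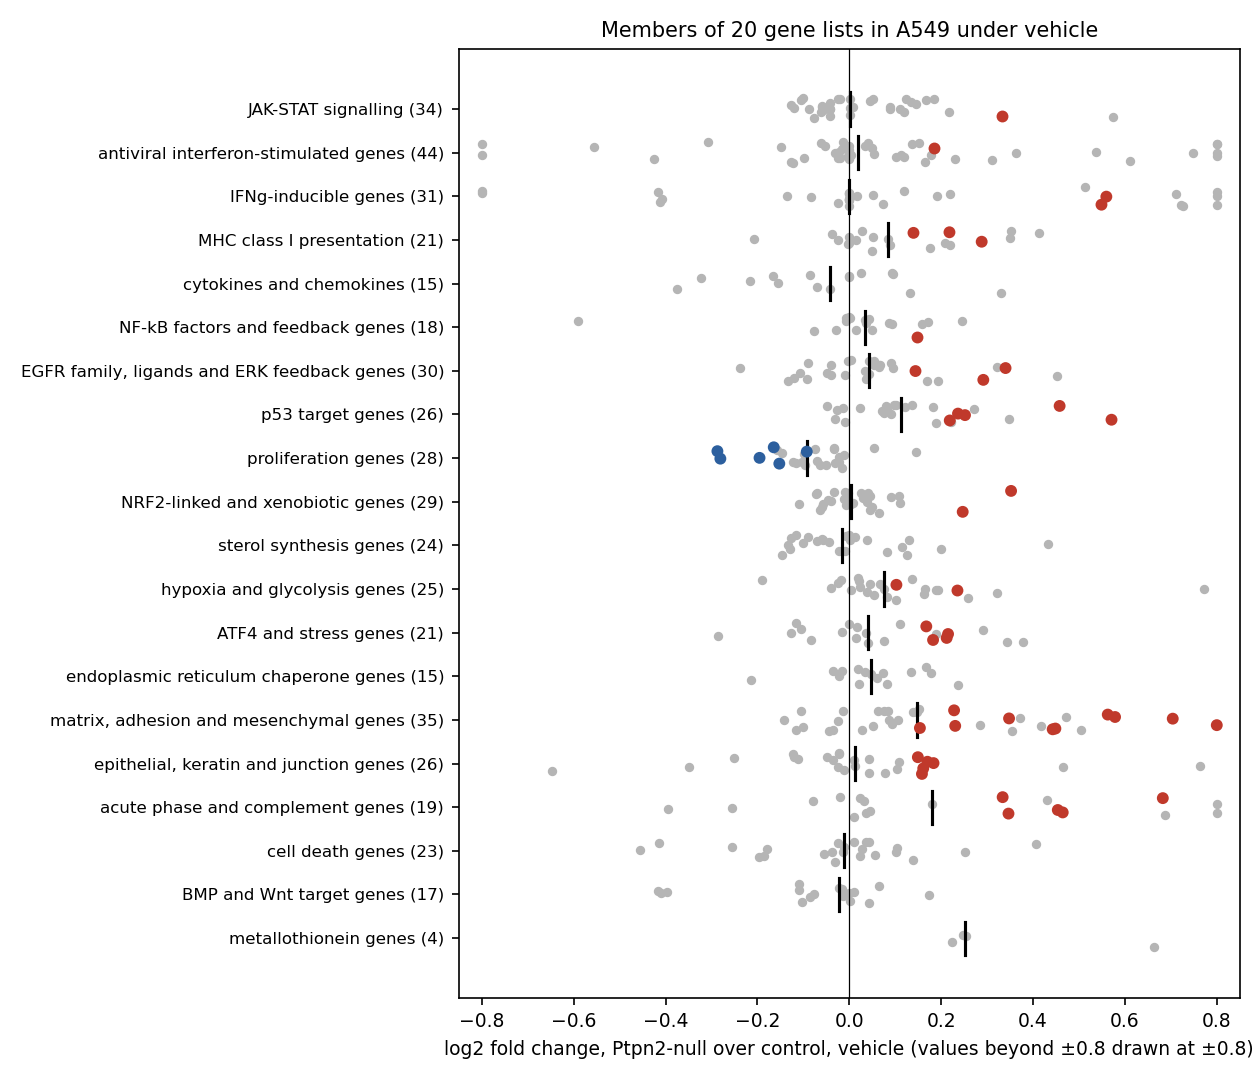
Log2 fold change under vehicle (Ptpn2-null over control) of each tested member of 20 gene lists, with the number tested in parentheses. Coloured points are called genes (red higher, blue lower), grey points are not called, and black bars are list medians with genes at 0 counts in a group set to their bound. The matrix list holds 10 red points, the proliferation list 6 blue ones, and the interferon lists 1 and 2.

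Genes that p53 activates and genes of the cell cycle differed in opposite directions. Of 26 tested p53 target genes 5 were called higher and none lower (median 0.11), against 1.56% higher among all tested genes. CDKN1A, which encodes the cyclin-dependent kinase inhibitor p21, had 143 and 142 CPM in Ptpn2-null cells and 95.1 and 96.8 CPM in control cells (0.57 ± 0.06, adjusted p = 3.0e-20). The death receptor gene FAS (0.46 ± 0.13), PHLDA3 (0.25 ± 0.06), TP53I3 (0.24 ± 0.06) and the nuclease gene AEN (0.22 ± 0.06) were the others, and of the 5 only CDKN1A kept its call whichever library was left out. Of 28 tested proliferation genes 6 were called lower and none higher (median -0.093), against 1.38% lower among all tested genes, and 26 of the 28 lay below 0. MKI67, the gene of the Ki-67 antigen, had 727 and 740 CPM in Ptpn2-null cells and 943 and 839 CPM in control cells (-0.28 ± 0.03, adjusted p = 2.9e-15). The kinetochore gene CENPF (-0.29 ± 0.03), the cyclin gene CCNA2 (-0.20 ± 0.06), CDK1 (-0.16 ± 0.05), the ribonucleotide reductase gene RRM1 (-0.15 ± 0.04) and the topoisomerase gene TOP2A (-0.092 ± 0.029) were also lower. MKI67 and CENPF have very long transcripts, and with the length trends removed they were at -0.19 and -0.18, both still called. RRM1 (adjusted p = 0.087) and TOP2A (adjusted p = 0.21) lost their calls there, as did FAS of the p53 list (adjusted p = 0.057). The p53 list then held 4 genes called higher and none lower. In that fit 5 proliferation genes were called lower, PCNA (-0.14 ± 0.04) newly among them, and without 1 library between 2 and 6 were.

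Genes of the acute phase and complement were higher in part. Of 19 tested members 5 were called higher and none lower (median 0.18), against 1.56% higher among all tested genes. The fibrinogen chain genes FGB and FGA, whose products are secreted mainly by the liver, were the ones with the larger differences. FGB had 25.3 and 29.4 CPM in Ptpn2-null cells and 16.4 and 17.4 CPM in control cells (0.68 ± 0.13, adjusted p = 1.3e-05), and FGA had 72.2 and 68.6 CPM in Ptpn2-null cells and 49.7 and 52.4 CPM in control cells (0.46 ± 0.08, adjusted p = 3.4e-07). The complement proteases C1R (0.45 ± 0.09) and C1S (0.33 ± 0.06) and the central component C3 (0.35 ± 0.11) were also higher. All but C3 kept their call whichever library was left out, and all 5 were called with the length trends removed.

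A few epithelial genes were slightly higher. Of 26 tested epithelial, keratin and junction genes 5 were called higher and none lower, against 1.56% higher among all tested genes, with a median of 0.012. The 5 were CDH1 (0.18 ± 0.05), which encodes E-cadherin, the claudin gene CLDN2 (0.16 ± 0.05) and 3 keratin genes. The keratin genes were KRT18 (0.17 ± 0.03), KRT8 (0.16 ± 0.03) and KRT7 (0.15 ± 0.03). KRT18 had 1655 and 1647 CPM in Ptpn2-null cells and 1412 and 1522 CPM in control cells. These 3 keratins kept their call whichever library was left out. Of the 26 members 14 lay above 0 and 12 below. With the length trends removed 5 were called higher and none lower. The keratin gene KRT4 was not on this list, and it was called lower (-0.40 ± 0.11, adjusted p = 0.023).

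Stress and growth factor lists held some calls, part of which depended on single libraries (1.56% of all tested genes were called higher). Of 21 tested ATF4 and stress genes 4 were called higher: CEBPB (0.22 ± 0.05), DDIT4 (0.17 ± 0.05), and the SLC7A5 (0.21 ± 0.03) and SLC3A2 (0.18 ± 0.03) genes, whose products form 1 amino acid transporter. SLC7A5 had 1753 and 1755 CPM in Ptpn2-null cells and 1494 and 1534 CPM in control cells. Of 30 tested genes of the EGFR family, its ligands and ERK feedback, 3 were called higher: the AP-1 genes JUNB (0.34 ± 0.05, adjusted p = 1.0e-07) and JUN (0.29 ± 0.08), and the phosphatase gene DUSP1 (0.14 ± 0.04). Of 29 NRF2-linked genes, a set that A549 cells express highly because their KEAP1 is mutated, 2 were called higher, HMOX1 and AKR1B1. HMOX1, heme oxygenase, had 416 and 408 CPM in Ptpn2-null cells and 317 and 329 CPM in control cells (0.35 ± 0.04, adjusted p = 3.6e-16), and AKR1B1 was 0.25 ± 0.04 higher. Of 25 hypoxia and glycolysis genes SLC2A1 (0.24 ± 0.05) and ALDOA (0.10 ± 0.03) were called higher, and of 18 NF-kB factors and feedback genes TNFAIP2 was (0.15 ± 0.03). Without 1 library the number called higher was 2 to 4 in the ATF4 list, 1 to 4 in the EGFR and ERK list, 2 to 3 in the NRF2 list and 0 to 3 in the hypoxia list. SLC7A5, SLC3A2, JUNB, HMOX1, AKR1B1 and TNFAIP2 kept their call whichever library was left out. CEBPB, DDIT4, JUN, DUSP1, SLC2A1 and ALDOA did not. With the length trends removed DDIT4, DUSP1 and ALDOA lost their calls, at 0.14, 0.12 and 0.069. In that fit PHLDA1 of the ERK list (-0.16 ± 0.05) and NQO1 of the NRF2 list (-0.094 ± 0.026) were called lower, and the glycolysis gene PFKP (0.17 ± 0.04) was called higher. No gene was called in the lists of cytokines and chemokines (15 tested), sterol synthesis (24), endoplasmic reticulum chaperones (15), cell death (23), BMP and Wnt targets (17) and metallothioneins with their zinc-regulated partner SLC30A1 (4). SLC30A1, a zinc exporter gene, had 57.5 and 64.7 CPM in Ptpn2-null cells and 53.4 and 48.8 CPM in control cells, just short of a call (0.25 ± 0.08, adjusted p = 0.0501), and was called with the length trends removed (0.27 ± 0.08, adjusted p = 0.033). With fits that left out 1 library, between 0 and 1 gene was called lower in the cytokine and in the sterol list.

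Many more genes differed between the genotypes under IFNg. In the other 4 A549 libraries 3197 genes (24.3%) were called between the genotypes, 1708 higher (13%) and 1489 lower (11.3%) in Ptpn2-null cells. Of the 206 genes called higher under vehicle 124 were called higher also under IFNg (60.2% of the 206 and 7.26% of the 1708), and 14 were called lower. Of the 182 called lower under vehicle 82 were called lower under IFNg (45.1%, and 5.51% of the 1489), and 16 were called higher. The 2 comparisons share no library but carry the same guides. Of the interferon lists, 38 of the 44 antiviral genes and 30 of the 31 IFNg-inducible genes were called higher in Ptpn2-null cells under IFNg, against 1 and 2 under vehicle. The test of the difference itself, the interaction, was called for 22 antiviral and 8 IFNg-inducible genes, all towards a larger difference under IFNg.

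Among the genes called under vehicle, 94 of the 206 higher and 58 of the 182 lower ones also had a called interaction (1486 of all tested genes did, 11.3%, with 6.36% towards higher and 4.92% towards lower). Of the 94, the difference was larger under IFNg in 48 and smaller or opposite in 46. Of the 58, it was larger under IFNg in 14 and smaller or opposite in 44. The fibrinogen genes stood out in size. FGB had 156 and 144 CPM in Ptpn2-null cells under IFNg and 7.57 and 7.53 CPM in control cells, a log2FC of 4.31 ± 0.10 against 0.68 under vehicle. In control cells IFNg lowered FGB by 1.16 on the log2 scale, and in Ptpn2-null cells it raised it by 2.46. SPP1, which encodes osteopontin, was 0.20 ± 0.04 higher under vehicle and 1.65 ± 0.04 higher under IFNg. STC1 (2.12 ± 0.20), the AP-1 gene FOSL2 (1.16 ± 0.04), the growth factor binding protein gene IGFBP3 (1.19 ± 0.03), the cathepsin gene CTSL1 (1.46 ± 0.03) and the cholesterol transport gene NPC1 (1.09 ± 0.04) were also further apart under IFNg. CDKN1A, with 0.57 under vehicle and 0.59 under IFNg, was not (interaction adjusted p = 0.94). TGFBI was 0.38 ± 0.03 higher under IFNg (interaction adjusted p = 0.70). KRT18 was 0.17 higher under vehicle and 0.34 lower under IFNg in Ptpn2-null cells, and KRT8 was 0.16 higher and 0.26 lower, called in both treatments. The other named keratins differed from these: KRT7 was at -0.048 under IFNg with no call (adjusted p = 0.16), and KRT4 was lower in both treatments (-0.40 and -1.96). SLC7A5 was at 0.21 under vehicle and -0.079 under IFNg, called in both, while SLC3A2 was not called under IFNg (-0.060 ± 0.030, adjusted p = 0.13). AKAP12 and CPLX2, with vehicle differences of -0.12 and 0.09, were at 0.61 and -0.37 under IFNg.

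**Figure D4:**
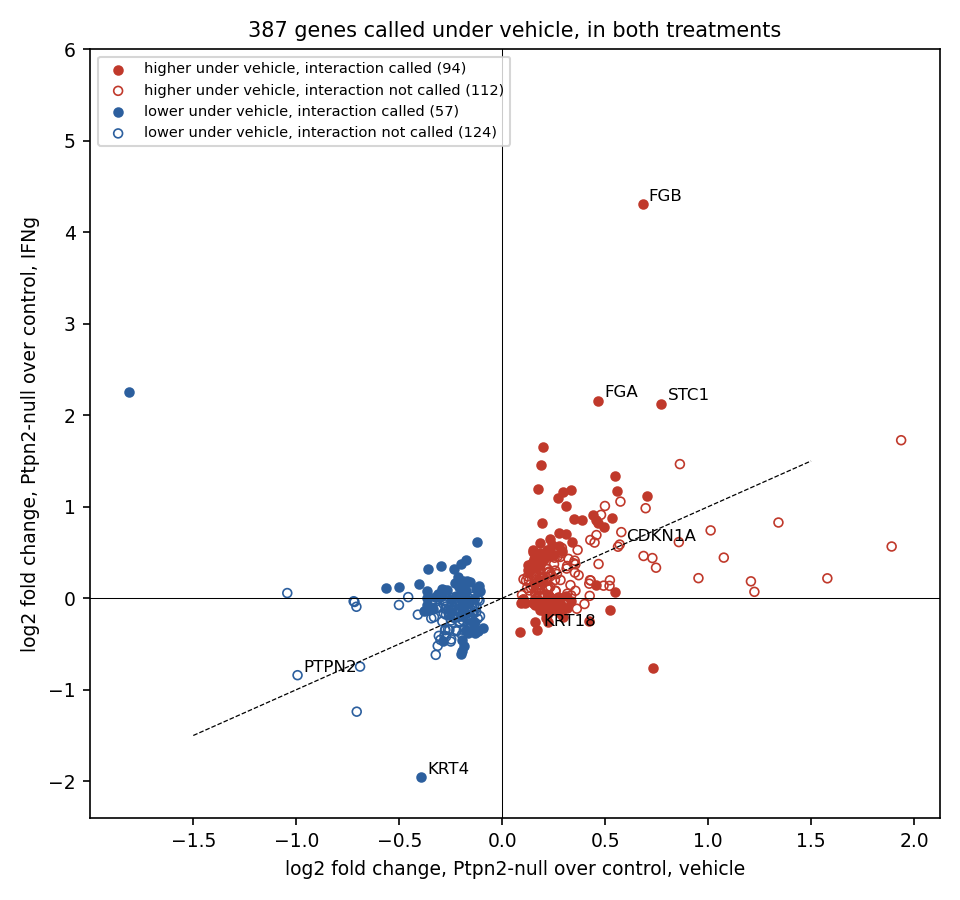
Log2 fold change of Ptpn2-null over control under IFNg against that under vehicle, for the 387 genes called under vehicle that had counts in every group. Filled points have a called interaction, open points do not, and the dashed line marks equal differences. FGB, FGA and STC1 lie far above the line, CDKN1A and PTPN2 lie near it, and KRT18 lies below 0 on the IFNg axis.

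The vehicle comparison was also made in 2 other lines. HT29 cells under vehicle had 2653 called genes (21.1%), 1566 higher (12.5%) and 1087 lower (8.66%) in Ptpn2-null cells, and 44 of 45 tested antiviral genes were among the higher ones. MelJuSo cells had 201 (1.64%), 133 higher (1.08%) and 68 lower (0.554%), and none of 43 tested antiviral genes was called. No test compared the lines with each other. Of the A549 calls that were tested in the other line, 67 of 166 higher and 31 of 173 lower ones were called the same way in HT29 (4.66% of 1438 and 2.91% of 1064 HT29 calls), while 9 and 34 were called the opposite way. In MelJuSo these were 19 of 160 and 10 of 172 (16.4% of 116 and 14.9% of 67 MelJuSo calls), with 0 and 2 the opposite way. Of 310 A549 calls tested in both lines 22 were called the same way in all 3, 14 higher and 8 lower. The targeted gene PTPN2 was among the 8. No such share was computed over all genes tested in the 3 lines. Whether 22 is more than the separate call rates would give was therefore not tested.

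Beside PTPN2, the genes called in all 3 lines included CDKN1A, with log2FC of 0.57 in A549, 1.28 in HT29 and 0.24 in MelJuSo. PMEPA1, a TGF-beta target gene that limits that pathway, had 270 and 277 CPM in Ptpn2-null A549 cells and 194.3 and 193.5 CPM in control cells (0.50 ± 0.04), and was 0.32 higher in HT29 and 0.23 higher in MelJuSo. GPR56, an adhesion G protein-coupled receptor gene, was 0.55 ± 0.07 higher in A549, 0.19 in HT29 and 0.25 in MelJuSo. The lysosomal genes PSAP (0.20 in A549) and CTSL1 (0.19), the elongation factor gene EEF1A2 (0.31) and the vault protein gene MVP (0.26) were higher in all 3. MKI67 (-0.28 in A549, -0.22 in HT29 and -0.14 in MelJuSo) and the spindle gene ASPM (-0.23, -0.27 and -0.19) were lower in all 3.

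The genes called lower were unlike those called higher in transcript length. No human annotation was used here, and lengths are of the mouse gene of the same symbol, found for 11332 tested genes (86.0%) and for at least 95.6% of the called ones. The median length was 7784 bases for genes called lower, 2938 for those called higher and 3510 for all tested genes. Of 10 equal groups of genes by length, the longest, from 6967 bases, held 99 genes called lower and 9 called higher. The shortest, up to 1526 bases, held 0 called lower and 32 called higher. Across genes, log2FC and length had a Spearman rho of -0.20 under vehicle and 0.018 under IFNg. In the longest group, the median deviation from the vehicle mean was -0.038 and -0.033 log2 units in the Ptpn2-null libraries, and 0.062 and 0.0095 in control replicates 1 and 2. With the trends removed, 165 of the 206 higher and 71 of the 182 lower calls remained, and without control replicate 1, 82 and 34 did. Long genes that kept their call in that fit and whichever library was left out include BIRC6 (-0.38, and -0.22 with the trends removed), an inhibitor of apoptosis gene, and PRKDC (-0.33 and -0.20), the gene of the DNA-dependent protein kinase. BIRC6 and PRKDC were named after their values were seen.

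**Figure D5:**
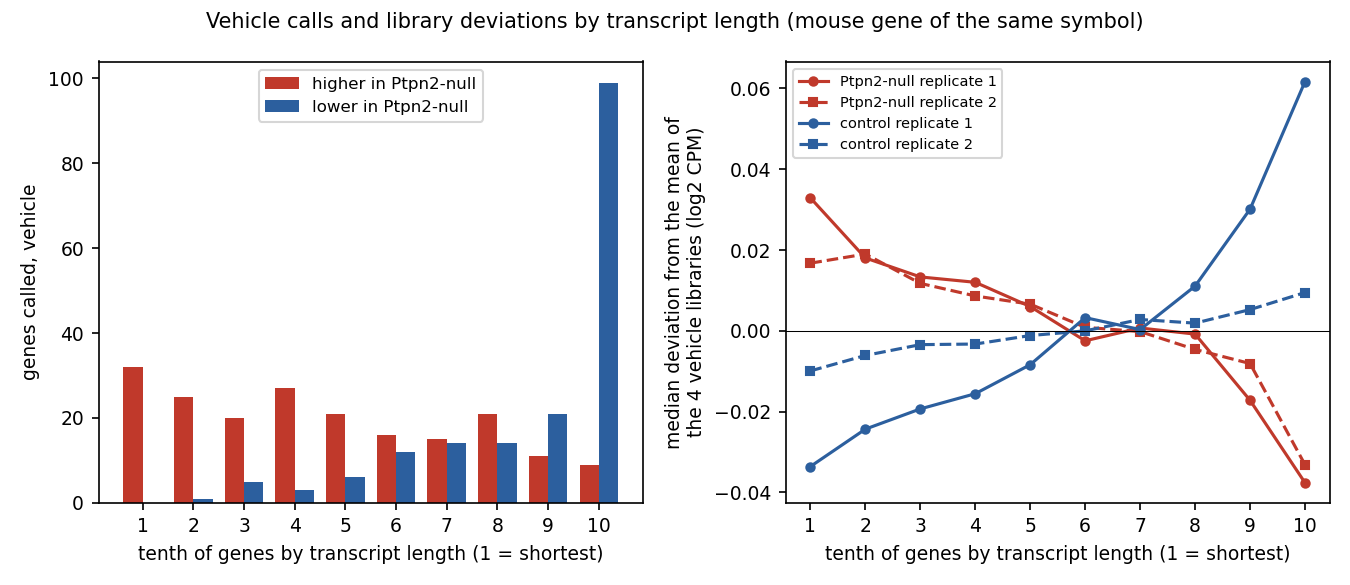
Left, number of genes called under vehicle in each of 10 equal groups of genes by transcript length (mouse gene of the same symbol); right, median deviation of each vehicle library from the mean of the 4, in log2 CPM, by the same groups. The longest group holds 99 lower calls, and control replicate 1 departs upward there (0.062) while both Ptpn2-null libraries lie below 0.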

How the data were processed

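RNA of A549 cells was captured as mRNA, made into directional libraries and sequenced as 37-base pairs, per the labels' protocols. The authors deposited raw read counts per gene; the submitters' processing notes list bcl2fastq 2.17.1.14, Trimmomatic 0.33, Bowtie2 2.2.4, HTSeq 0.6.1p1 and DESeq2, with the build hg19 for human cells. For the counting, the annotation and strand setting were not given in the sources used here, so counts of overlapping genes and of near-identical families (HLA, UGT1A, APOL, keratins, metallothioneins) are uncertain.

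Counts were fitted per line in R 4.3.3 with edgeR 4.0.16: filterByExpr, TMM, 1 mean per group over all libraries of the line (8 in A549, 8 in HT29, 12 in MelJuSo), robust quasi-likelihood test and Benjamini-Hochberg adjustment. The common biological coefficient of variation in A549 was 0.0223, and with 2 libraries per group this spread is shared by 4 groups. The fit was tested on simulated data. Replicates differed by more than counting noise (chi-square per degree of freedom 1.20 to 1.45), so none was merged. No list was tested: lists are given as counts and medians. The members and lists were chosen with earlier results of these data known. Genes named are PTPN2, the 15 called genes per direction with the largest log2FC (mean log2 CPM of at least 1, groups not overlapping), up to 8 called members per list, 28 fixed interferon-pathway genes, up to 10 genes called in all 3 lines and up to 10 called in the interaction. A few genes that this rule names are not reported here.

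Alternatives were RLE size factors, no filter, DESeq2 1.42.0, a replicate block, only the 2 groups compared, and leaving out each library. Removing each library's trend on transcript length (a robust spline with 4 degrees of freedom; lengths from mouse GENCODE M21) and DESeq2 without independent filtering were chosen with the data in view. The A375 and B16 tables were not used here.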

Additional observations from a re-analysis of the deposited data

Results flagged for a closer look

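In 54 of the genes named here the genotype difference itself differed between treatments, by the interaction term of edgeR's fit over the 8 A549 libraries. The values are the log2FC of Ptpn2-null over control under IFNg minus that under vehicle.

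Of the genes called higher under vehicle, 21 were further apart under IFNg, by LGALS3BP 0.18, AKR1B1 0.23, DUSP1 0.24, JUNB 0.27, PMEPA1 0.28, NNMT 0.34, TNFAIP2 0.38, COL4A1 0.42, PLAU 0.46, C3 0.51, APOL1 0.61, APOL2 0.79, NPC1 0.82, SOCS3 0.85, FOSL2 0.87, IGFBP3 1.02, CTSL1 1.27, STC1 1.35, SPP1 1.45, FGA 1.70 and FGB 3.62. The FGB value stands for 2 treatments in which both Ptpn2-null libraries lay above both control libraries. Of the same genes, 4 were closer together under IFNg but still above 0, with interaction values of GPR56 -0.48, C1R -0.30, EEF1A2 -0.29 and C2orf18 -0.20. A further 13 lay below 0 under IFNg, not all of them called there. Their interaction values were ABCA12 -1.49, KRT18 -0.51, CPLX2 -0.46, KRT8 -0.42, AEN -0.40, HLA-C -0.37 and C1S -0.36. The others had SLC7A5 -0.29, SLC3A2 -0.24, CEBPB -0.23, DDIT4 -0.21, KRT7 -0.20 and ALDOA -0.11. HLA-C (log2FC -0.079 under IFNg, adjusted p = 0.12), KRT7 and SLC3A2 were among those not called under IFNg.

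Of the genes called lower under vehicle, 3 were further below control under IFNg, with interaction values of KRT4 -1.56, TOP2A -0.23 and CENPF -0.18. Another 2 lay above 0 under IFNg, with interaction values of ZFHX4 0.63 and AKAP12 0.73. ZFHX4 was not called under IFNg (log2FC 0.13, adjusted p = 0.55). ZFHX4 and AKAP12 were called lower under vehicle, but lost that call with the length trends removed (ZFHX4 -0.36, adjusted p = 0.19; AKAP12 -0.089, adjusted p = 0.13) and without control replicate 1 (ZFHX4 -0.36, adjusted p = 0.44; AKAP12 -0.11, adjusted p = 0.21).

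Of the genes not called under vehicle, 11 had a positive value, IFNAR1 0.27, IFNGR1 0.30, STAT3 0.30, STAT2 0.33, TAP1 0.51, OAS1 0.58, JAK2 0.91, IFIT1 0.95, ISG15 0.96, IRF1 0.96 and SOCS1 2.53. SOCS1, ISG15 and IFIT1 had few counts under vehicle, and their standard errors there were wide.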

How the results depend on the processing

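The alternatives changed how many genes were called. DESeq2 called 91 genes under vehicle (60 higher and 31 lower) and gave no adjusted p for 84 of the 388 genes, PTPN2 among them; without its independent filtering it called 61 (46 and 15), with PTPN2 at -0.99 ± 0.20 (adjusted p = 0.00057), and 620 genes had an unadjusted p under 0.05, against 1787 in edgeR. DESeq2 also called 1438 genes in A549 under IFNg, 500 in the interaction, 1268 in HT29 and 117 in MelJuSo; 55, 34 and 9 vehicle calls were shared with A549 under IFNg, HT29 and MelJuSo, and 4 were in the IFNg-induced list from the other lines. With the length trends removed 88 genes were lower, and 1 of the 388 changed sign. Fits of the 2 groups alone called 366 genes in MelJuSo.

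Correlations of same-numbered deviations ran from -0.013 to 0.030 in A549, 0.021 to 0.090 in HT29 and -0.016 to 0.091 in MelJuSo. They are small and do not settle whether the replicate numbers pair the samples. With the number as a replicate block 222 genes were higher and 226 lower in A549, all 388 remained, and MelJuSo had 311.

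Without 1 library, the vehicle count in A549 was 134 to 401 (88 to 209 higher, 46 to 192 lower), that under IFNg 2226 to 3249 and the interaction 1090 to 1318. HT29 had 1626 to 3033 and MelJuSo 97 to 243. Shared calls numbered 88 to 191 with IFNg, 45 to 105 with HT29 and 12 to 33 with MelJuSo, and the IFNg-induced list had 4 to 8. PTPN2 was called in each such fit.

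Genes at about control level took either sign without 1 library: GBP1 -0.26 to 0.79, HLA-B -0.14 to 0.14, IFIT1 -0.14 to 0.25, IFNAR1 -0.15 to 0.049, IFNAR2 -0.25 to 0.074, IRF1 -0.15 to 0.22, ISG15 -0.41 to 0.24, JAK2 -0.17 to 0.077, MX1 -1.31 to 0.20, OAS1 -0.065 to 0.071, PSMB9 -0.20 to 0.21, SOCS1 -0.14 to 0.099 and TAP1 -0.043 to 0.043. TAP1 was -0.00057 with RLE factors and -0.00015 in DESeq2, PSMB9 0.00025 with no filter, and IRF1 -0.0064 and OAS1 -0.026 with the length trends removed. None of these was called in any fit.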

Other observations

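Among genes chosen after their values were seen, 4 with lysosomal products were called higher. CTSD, an aspartic protease of the lysosome, had 689 and 705 CPM in Ptpn2-null cells and 574 and 616 CPM in control cells (log2FC 0.23 ± 0.03, adjusted p = 2.0e-09). CTSB, a cysteine protease of the same compartment, had 459 and 468 CPM in Ptpn2-null cells and 402 and 396 CPM in control cells (0.22 ± 0.04, adjusted p = 5.6e-07). GRN, the progranulin gene, was 0.16 ± 0.04 higher and CLCN7, a lysosomal chloride transporter gene, was 0.22 ± 0.06 higher. CTSD and CTSB kept their call whichever library was left out. No count over all lysosomal genes was made, so nothing is said of the lysosome as a group.

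TGM2, which encodes the protein-crosslinking enzyme transglutaminase 2, had 372 and 382 CPM in Ptpn2-null cells and 265 and 281 CPM in control cells (0.47 ± 0.03, adjusted p = 6.0e-38). SERPINE2, a secreted serine protease inhibitor gene, had 110.5 and 114 CPM in Ptpn2-null cells and 82.2 and 84.2 CPM in control cells (0.43 ± 0.06, adjusted p = 7.7e-09). Ribosomal protein genes RPS19 (0.27 ± 0.04) and RPL19 (0.28 ± 0.05) were higher under vehicle and were at -0.037 and -0.17 under IFNg. The 81 ribosomal protein genes together took 1.07% and 1.08% of counts in Ptpn2-null cells and 1.005% and 1.03% in control cells. With the length trends removed RPS19 was at 0.25 ± 0.04 (adjusted p = 1.6e-06) and RPL19 at 0.24 ± 0.05 (adjusted p = 0.00020), and both kept their call whichever library was left out. TGM2, SERPINE2, RPS19 and RPL19 were chosen after their values were seen.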
